A study of Homo sapiens with 4 samples.

Results

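Of 9900 m6A regions mapped in human embryonic stem cells, 454 (4.59%) were centred in an older primate L1 element. They were chosen by the deposited annotation alone: the region centre lay in an intron or between genes, in a repeat of the L1 family whose name starts with L1P, leaving out L1PA2 to L1PA8 and L1PA8A. They made up 7.23% of the 6282 intronic and intergenic regions and 20.5% of the 2215 of these centred in any L1. The cells were wild-type H1, an established human embryonic stem cell line, with 2 libraries of RNA pulled down with an m6A antibody and 2 libraries of input RNA. No treatment was named beyond the antibody, and nothing in the labels said whether the replicates came from separate cultures. The 4 libraries gave 1 deposited set of regions with positions only, so no height, depth or value per library stands behind a region, and all counts are of regions or genes in that set. Intervals beside shares were computed at the 95% level by the Clopper-Pearson method, and they measure no error other than that of counting.

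L1 elements are retrotransposons that copy themselves through an RNA intermediate, and most copies in the human genome are truncated or mutated and no longer mobile. The L1PA families are numbered from young to old, L1PB is a separate primate branch, and L1M families are for the most part older. Intronic L1 copies are transcribed as part of the host gene's precursor RNA, and m6A, a methylated adenosine that nuclear and cytoplasmic reader proteins bind, has been described on L1-containing RNA in human cells. The number of genomic copies of each family was not used here, so the counts below say where the regions lie and not how often a copy of a family carries one.

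The members carried 24 repeat names, and 15 of these names had 10 or more members. L1PB1 was the most frequent with 94 regions, followed by L1PA10 with 52, L1P2 with 37 and L1PA13 with 29, and these names together held 212 members (46.7%). The L1PA names outside the younger families held 191 members, L1PB names 147, and L1P1 to L1P4 with L1PREC2 held 116. L1PA8A and L1PA8, the nearest names on the younger side of the limit, had 28 and 41 regions with median widths of 1270.5 and 1219 bp. L1PA10, the first name on the older side, had 52 regions with a median of 1701 bp.

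Most members were narrow. Their median width was 1269 bp (quartiles 1009.5 and 2082.2 bp), and 328 of 454 (72.2%) were at most 2 kb. Widths of 801 to 1200 bp alone accounted for 173 members (38.1%), against 503 of 1096 regions centred in younger primate L1, meaning L1HS and L1PA2 to L1PA8A (45.9%), and 167 of 632 centred in ancient L1, meaning names starting with L1M (26.4%). Widths of 2001 to 2400 bp held 34 members (7.49%), against 128 younger (11.7%) and 29 ancient L1 regions (4.59%). Median widths were 1208.5 bp in younger L1, 1637.5 bp in ancient L1 and 2037 bp in regions with no repeat at the centre.

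**Figure D1:**
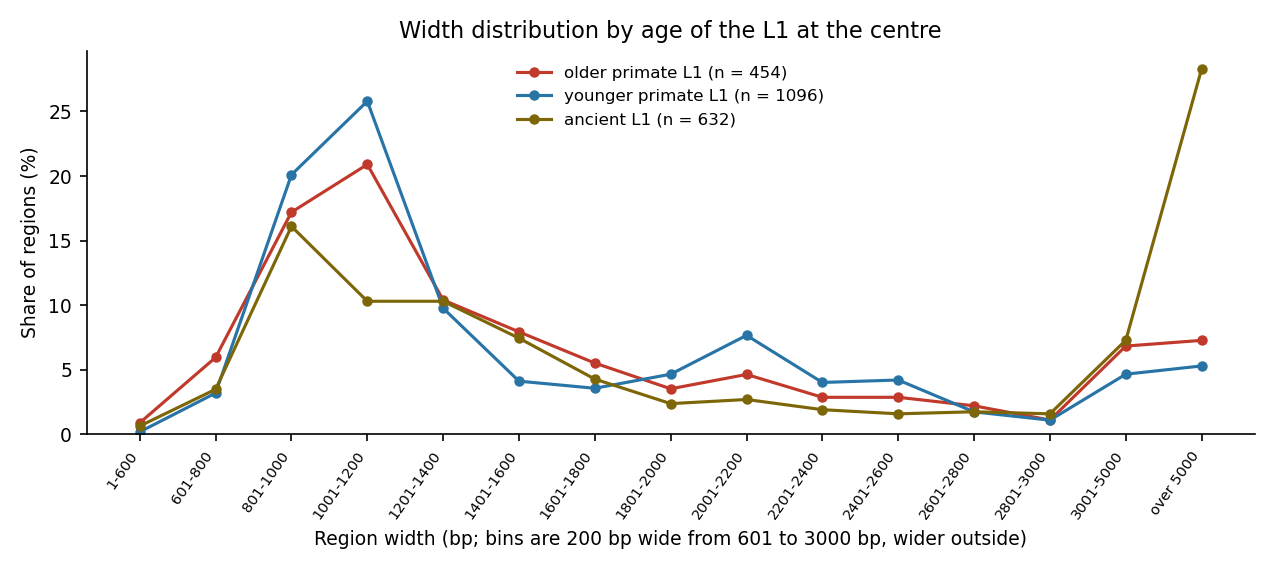
Share of regions (%, vertical axis) in each width class (bp, horizontal axis) for regions centred in older primate L1, younger primate L1 and ancient L1, with the number of regions in the legend. Older and younger primate L1 regions peak at 1001 to 1200 bp (20.9 and 25.8%), and the class over 5 kb holds 7.27% of older and 5.29% of younger primate L1 regions and 28.3% of ancient L1 regions.

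Among the members, 33 were over 5 kb wide (7.27%, interval 5.06 to 10.1%). The share was far lower than in ancient L1 regions, where 179 of 632 were over 5 kb (28.3%, 24.8 to 32.0%; difference -21.1 percentage points, adjusted Fisher's exact p = 6.69e-19). It was also lower than in intronic and intergenic regions with no repeat at the centre, where 669 of 2505 were that wide (26.7%; difference -19.4 points, adjusted Fisher's exact p = 4.54e-22). Against younger L1 regions, with 58 of 1096 over 5 kb (5.29%, 4.04 to 6.79%), the difference of 1.98 points did not pass the threshold (adjusted Fisher's exact p = 0.205). It passed when the members were limited to L1PA and L1PB names (3.88 points, adjusted Fisher's exact p = 0.0250) and turned to -0.896 points with 2 kb as the limit (adjusted Fisher's exact p = 0.846). Regions are the units of these tests and neighbours are not independent of each other, so the p-values describe this 1 set of regions.

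The repeat names differed in how tightly their widths clustered. L1P2, with 37 members, ran from 794 to 2591 bp with quartiles of 1009 and 1234 bp, and none was over 5 kb. L1PA13, with 29 members, ran from 722 to 2713 bp. L1PB4 had 7 members from 734 to 1835 bp, the widest of them in intron 1 of 21 of OSBPL3, which encodes a lipid-binding protein. L1PA10 had a higher median of 1701 bp and an upper quartile of 2817.2 bp. L1PA15 had a median of 1492 bp and an upper quartile of 3687.8 bp, and 4 of its 26 members were over 5 kb. L1PA17 had 12 members with a median of 1651.5 bp, and 4 of them were over 5 kb. By branch, 20 of 191 L1PA members (10.5%) and 11 of 147 L1PB members (7.48%) were over 5 kb, and the difference did not pass the threshold (2.99 points, adjusted Fisher's exact p = 0.527). It was 0.0846 points without regions over 100 kb and 9.91 points with 2 kb as the limit (adjusted Fisher's exact p = 0.0765).

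**Figure D2:**
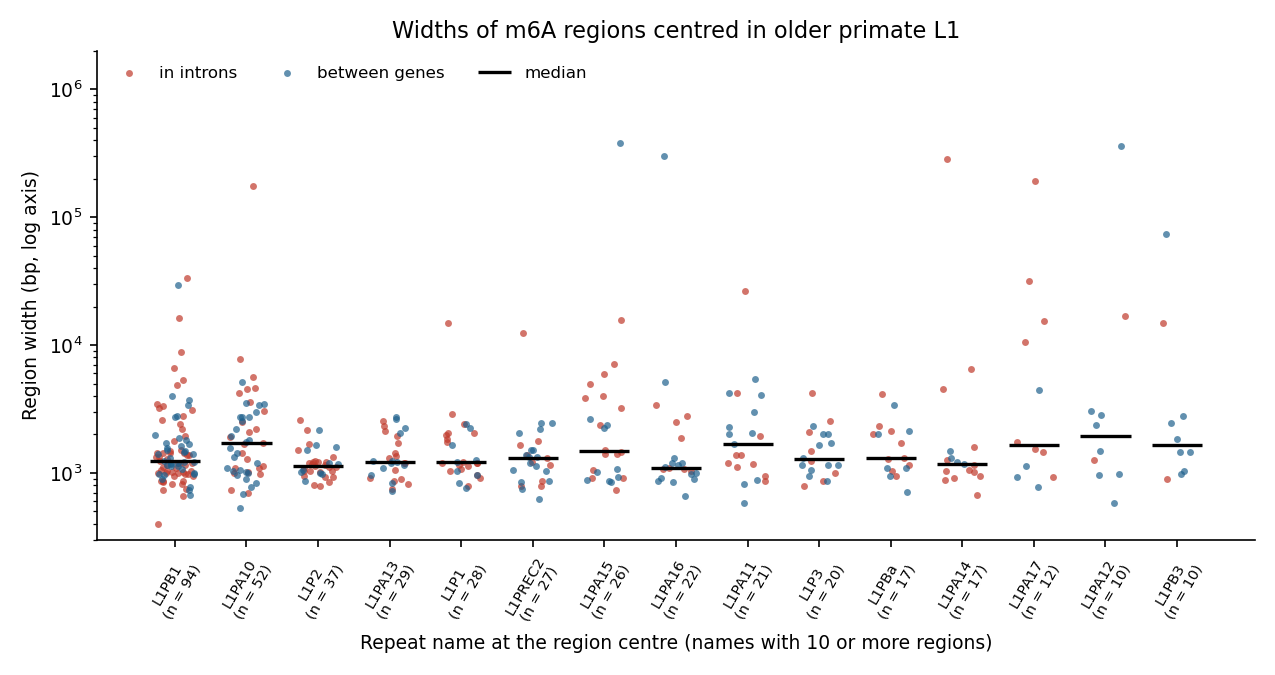
Width of each member (bp, log axis) by the repeat name at its centre, for the 15 names with 10 or more members, with introns and intergenic sequence in different colours and the median as a black line. Medians lie between 1098.5 bp (L1PA16) and 1934.5 bp (L1PA12), and the points above 100 kb belong to L1PA10, L1PA12, L1PA14, L1PA15, L1PA16 and L1PA17.

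The 6 members over 100 kb held 61.6% of all bases covered by members, and all were centred in L1PA names. The widest, 379436 bp centred in L1PA15, lay on chromosome 1 at positions 149176050 to 149555485, with NOTCH2NLC as the gene of the nearest start site. NOTCH2NLC is a human-specific NOTCH2-derived gene of neural progenitors. A region of 300505 bp centred in L1PA16 lay on the same chromosome at 148605918 to 148906422, with NUDT4B as the gene of the nearest start site. Another of 175959 bp, at 145565967 to 145741925, was centred in L1PA10 in intron 10 of 13 of GPR89A. These 3 lie in a part of chromosome 1 known for duplicated genes. The others were 362895 bp on chromosome 9 (L1PA12), 285715 bp on chromosome 1 (L1PA14) and 191733 bp on chromosome 10 (L1PA17). The centre of the first was nearest to the SVEP1 start site. The other centres lay in intron 4 of 6 of NEGR1 and in the pseudogene ANTXRLP1. NEGR1 encodes a neuronal cell adhesion protein. The annotation describes only the base at the centre of a region, so for these the L1 is a small part of the whole. In every region, intron labels and distances to start sites also refer to the centre alone. The start sites of NOTCH2NLC, NUDT4B and SVEP1 lie inside these very wide regions. So do the whole gene bodies of GPR89A (62663 bp) and ANTXRLP1 (50584 bp).

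Below these came a 73835 bp intergenic region on chromosome 1 (L1PB3), 33616 bp in intron 5 of 15 of PPP1R9A (L1PB1), which encodes the actin-binding protein neurabin, and 31930 bp in intron 15 of 16 of CPVL (L1PA17). The tenth widest was 29407 bp on chromosome X, 59281 bp from the start site of ARHGAP36 (L1PB1). Other names reached 26229 bp in intron 1 of 10 of GNB5, a G protein beta subunit (L1PA11), 14921 bp in intron 3 of 5 of JPH1, a junctophilin (L1P1), 12450 bp in the only intron of ZNF92 (L1PREC2) and 8969 bp in intron 1 of 34 of RAB3GAP2 (L1PB).

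At the other end, the narrowest member was 396 bp, at positions 116049336 to 116049731 of chromosome 1 in intron 8 of 11 of SLC22A15, a solute carrier (L1PB1). The next were intergenic, 532 bp 7997 bp upstream of the CPO start site (L1PA10), 582 bp near ZNF717 (L1PA11), 584 bp near RGMB (L1PA12) and 629 bp near EIF5A2 (L1PREC2). HEPH, a copper-dependent ferroxidase gene on chromosome X, held 1 of 658 bp in intron 15 of 18, and CHIC1 on the same chromosome held 1 of 670 bp in intron 3 of 4. The remaining 3 of the 10 narrowest were intergenic, 663 bp near ZKSCAN2 (L1PA16), 678 bp near STPG2-AS1 (L1PB1) and 687 bp with XACT as the nearest start site (L1PA10). Intronic and intergenic members had like median widths, 1275 and 1252 bp, but 25 of 245 intronic and 8 of 209 intergenic members were over 5 kb.

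By the deposited annotation, members were labelled intronic less often than the regions they were set against. Introns held 245 of 454 (54.0%, interval 49.3 to 58.6%), against 693 of 1096 younger L1 regions (63.2%, 60.3 to 66.1%; difference -9.27 points, adjusted Fisher's exact p = 0.00151). The younger share was 59.8% for L1HS and L1PA2 to L1PA4 (337 of 564) and 66.9% for L1PA5 to L1PA8A (356 of 532). These 2 classes were not tested apart. In ancient L1 regions the intronic share was 74.2% (469 of 632; difference -20.2 points, adjusted Fisher's exact p = 1.48e-11), and in regions with no repeat at the centre it was 89.8% (2250 of 2505; difference -35.9 points, adjusted Fisher's exact p = 7.46e-65). Within the members, 97 of 191 L1PA regions (50.8%) and 83 of 147 L1PB regions (56.5%) were intronic, a difference of -5.68 points that missed the threshold (adjusted Fisher's exact p = 0.404). Single names ranged widely around this: 26 of 37 L1P2 and 13 of 17 L1PA14 regions were intronic, but only 2 of 10 L1PA12 and 2 of 10 L1PB3 regions.

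**Figure D3:**
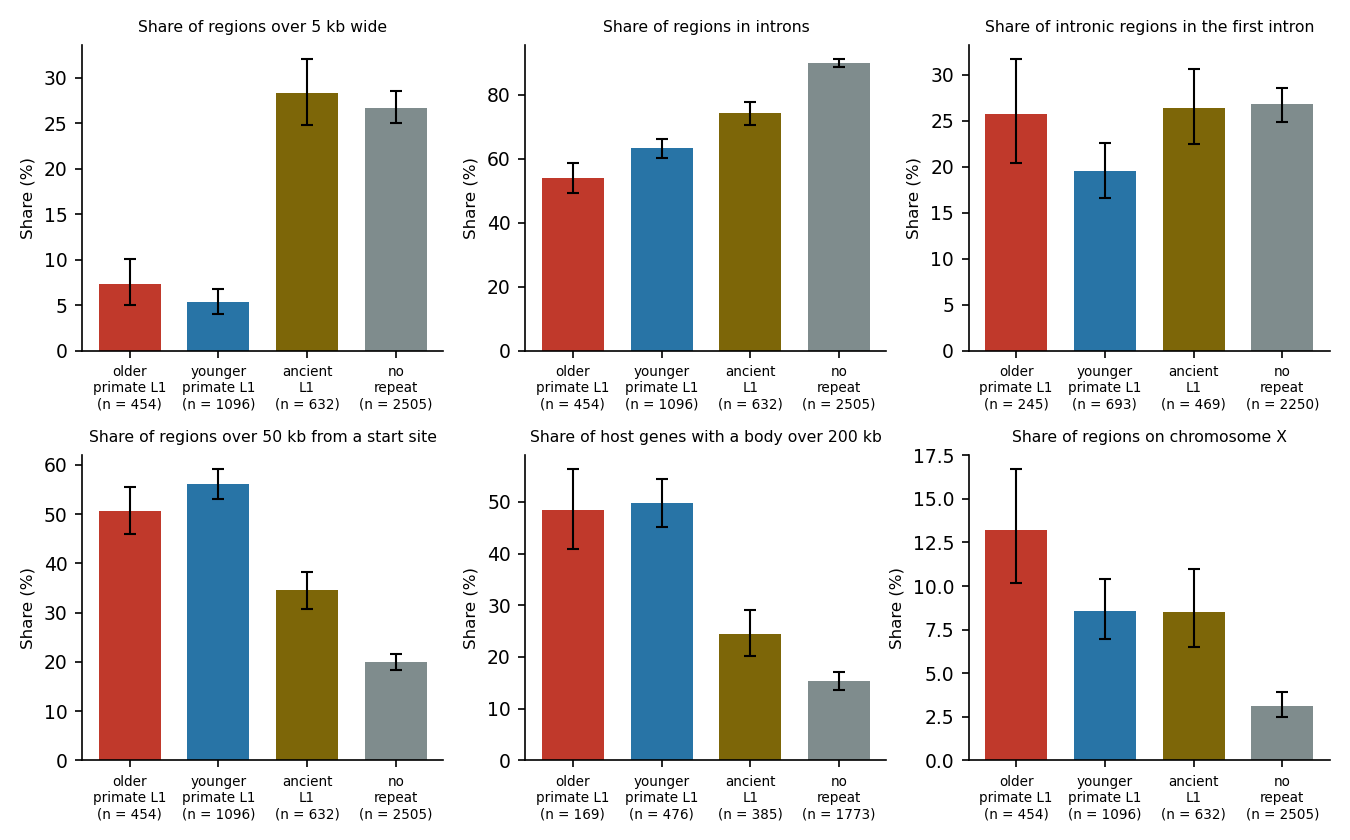
Share (%, vertical axes from 0) of regions, intronic regions or distinct protein-coding host genes with each of 6 properties, for older primate L1, younger primate L1, ancient L1 and no repeat at the centre. Error bars are 95% exact binomial intervals and n is given under each bar. By the deposited labels older primate L1 has the lowest intronic share (54.0%) and the highest share on chromosome X (13.2%), and is close to younger L1 in width and host gene length.

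The intergenic label depends on the gene models used. When the 209 intergenic members were set against a newer RefSeq gene table (GRCh38.p14), 70 of them (33.5%) were centred inside an annotated gene body, 46 of these in long non-coding RNA genes and 24 in protein-coding genes, with 1 in both. A pair of L1PB1 regions of 1135 and 1882 bp lay in CBR4, and L1PREC2 and L1P3 regions of 1325 and 1144 bp in FAAH2, a fatty acid amide hydrolase gene on chromosome X that also held an intronic L1P1 region of 1204 bp. On the same chromosome an L1PA11 region of 2277 bp lay in FANCB, a Fanconi anaemia gene, and an L1P3 region of 1657 bp in LINC00632. The other 139 intergenic members (30.6% of all members) lay outside every gene of that table. With the same table applied to every group, an alternative added after seeing the data, 315 of 454 members (69.4%) were inside a gene, against 820 of 1096 younger L1 regions (74.8%), and that difference of -5.43 points no longer passed (adjusted Fisher's exact p = 0.0534). The differences from ancient L1 (-13.5 points, adjusted Fisher's exact p = 5.33e-07) and from regions with no repeat (-25.8 points, adjusted Fisher's exact p = 4.63e-51) still passed, and the difference between L1PA and L1PB members was -1.17 points (adjusted Fisher's exact p = 0.906). The genes named here were picked after their values were seen.

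Members were far from annotated start sites. The median distance of the centre to the nearest start site was 51014.5 bp (quartiles 22749 and 151062 bp), and 152 members were over 100 kb away. Over 50 kb lay 230 of 454 (50.7%, interval 46.0 to 55.4%), against 218 of 632 ancient L1 regions (34.5%, 30.8 to 38.3%; difference 16.2 points, adjusted Fisher's exact p = 2.33e-07) and 501 of 2505 regions with no repeat (interval 18.4 to 21.6%; difference 30.7 points, adjusted Fisher's exact p = 4.19e-38). The share in younger L1 regions was 615 of 1096 (56.1%, 53.1 to 59.1%), and the difference of -5.45 points missed the threshold (adjusted Fisher's exact p = 0.0809). Intronic members had a median distance of 44381 bp and none was over 500 kb away. Intergenic members had a median of 73678 bp, and 19 of 209 were over 500 kb away.

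Centred within 2.5 kb of a start site were 6 members. The rule admits only intronic and intergenic centres, so regions labelled promoter were left out beforehand and this low count is partly fixed by it. The nearest was a 2503 bp region that spanned the start site of the non-coding gene LOC100506076 on chromosome 2 (L1PA10). Its centre lay 637 bp downstream of that start, in intron 1 of 3. An L1P2 region of 808 bp in intron 1 of 5 of DTWD2, a tRNA-modifying enzyme gene, was 1046 bp upstream of MIR1244-2. Centres of L1P1 regions of 839 bp near LINC02562 and 2869 bp at DHRS4L1 were 1229 bp upstream and 1421 bp downstream of a start site. The DHRS4L1 region also spanned the start site of its gene. An L1P2 region of 1212 bp in FSD1L was centred 1518 bp upstream of the start site of RALGAPA1P1. The farthest members were on chromosome X, an L1PBa region of 1099 bp whose nearest start site, that of the protocadherin gene PCDH19, was 1316293 bp away, and an L1P2 region of 1658 bp 1255642 bp from DIAPH2-AS1. After these came L1PA13 regions of 961 and 1206 bp, 932843 and 929876 bp from the TRPS1 start, and an L1PB2 region of 1707 bp 894373 bp beyond ARRDC3.

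Chromosome X held more members than any other chromosome. It had 60 of 454 (13.2%, interval 10.2 to 16.7%), against 94 of 1096 younger L1 regions (8.58%, 6.99 to 10.4%; difference 4.64 points, adjusted Fisher's exact p = 0.0122) and 54 of 632 ancient L1 regions (8.54%; difference 4.67 points, adjusted Fisher's exact p = 0.0263). In regions with no repeat the share was 3.15% (79 of 2505; difference 10.1 points, adjusted Fisher's exact p = 1.97e-15), and over all 9900 regions 4.47%. With 1 region per host gene or nearest gene, 39 of 368 members were on X, and neither the difference from younger L1 (3.44 points, adjusted Fisher's exact p = 0.0992) nor that from ancient L1 (3.56 points, adjusted Fisher's exact p = 0.118) passed. The difference from ancient L1 also failed to pass with L1PA and L1PB names alone (4.18 points, adjusted Fisher's exact p = 0.0666) and with regions up to 5 kb (4.03 points, adjusted Fisher's exact p = 0.0907). Within younger L1 the share was 6.56% for L1HS and L1PA2 to L1PA4 (37 of 564) and 10.7% for L1PA5 to L1PA8A (57 of 532). Among members it was 13.1% for L1PA names, 12.2% for L1PB names and 14.7% for L1P1 to L1P4 with L1PREC2. These classes were not tested against each other for X. The names just younger than the limit also had high shares on X, 9 of 28 L1PA8A regions and 9 of 41 L1PA8 regions. The difference was not recomputed with these names on the older side. Members on X were 30 intronic and 30 intergenic, with a median width of 1301.5 bp (658 to 29407 bp), against 1257.5 bp for the 394 on other chromosomes. L1PB1 accounted for 10 of them, L1PA10 for 9 and L1PA13 for 7.

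Away from X, chromosomes 2 to 6 held 181 members (39.9%), against 416 of 1096 younger L1 regions (38.0%) and 29.2% of all regions, while chromosome 1 held 23 (5.07%, against 8.87% of all regions). Chromosome 2 held 50, chromosome 3 held 38 and chromosomes 4 and 5 held 32 each. Chromosomes 17, 19, 20 and 22, which carry many genes for their size, together held 12 members (2.64%), against 56 younger L1 regions (5.11%) and 1485 of all regions (15.0%). Single chromosomes differed in this: chromosome 16 went the other way, with 12 members (2.64%) against 6 younger L1 regions (0.547%). Chromosome 19 had 638 m6A regions, 7 members (1.54%) and 15 younger L1 regions (1.37%). Chromosome 22 had 183 regions and no member. These shares away from X were not tested.

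**Figure D4:**
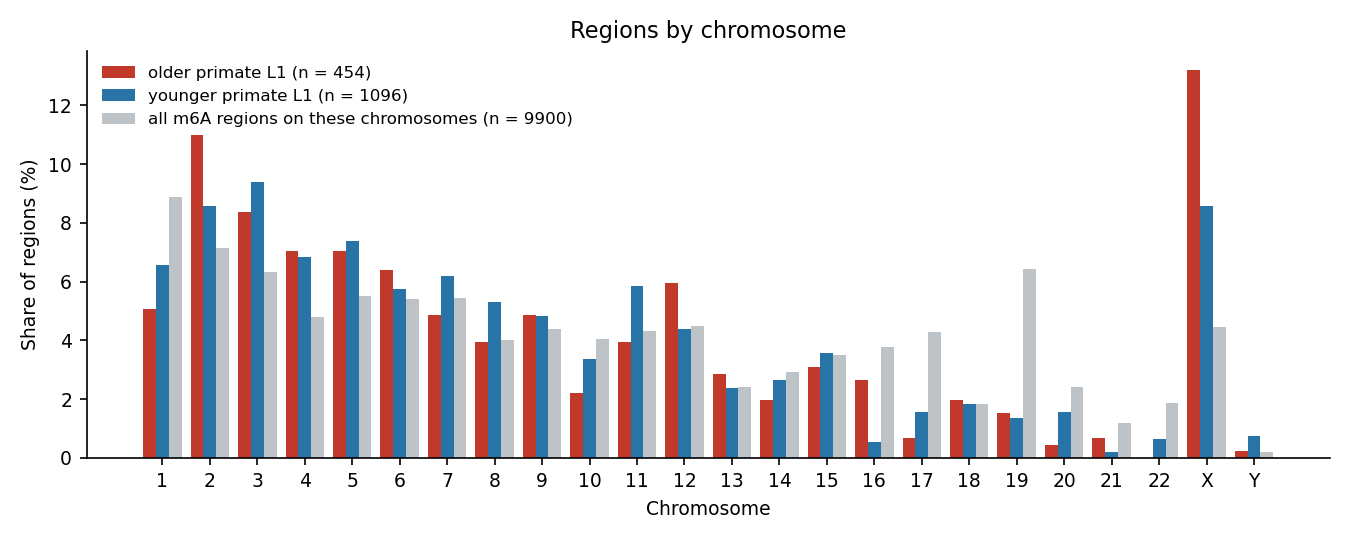
Share of regions (%, vertical axis) on each chromosome (horizontal axis) for older primate L1, younger primate L1 and all 9900 m6A regions. On X lie 13.2% of members, against 8.58% of younger L1 regions (10.7% of L1PA5 to L1PA8A) and 4.47% of all regions. Members are few on chromosomes 17, 19, 20 and 22.

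Host genes of the intronic members were long. The annotation's transcripts matched a RefSeq gene for 243 of 245 intronic members, giving distinct host genes of which 169 were protein-coding and 33 long non-coding RNA genes. Protein-coding hosts had a median gene body of 191568 bp (quartiles 106016 and 389180 bp), where the median of all 20056 protein-coding genes was 24092.5 bp. Bodies over 200 kb were found in 82 of 169 (48.5%, interval 40.8 to 56.3%), against 94 of 385 hosts of ancient L1 regions (24.4%, 20.2 to 29.0%; difference 24.1 points, adjusted Fisher's exact p = 9.70e-08) and 272 of 1773 hosts of regions with no repeat (15.3%, 13.7 to 17.1%; difference 33.2 points, adjusted Fisher's exact p = 9.93e-21). Against hosts of younger L1 regions, of which 237 of 476 were over 200 kb (49.8%, 45.2 to 54.4%), the difference of -1.27 points missed the threshold (adjusted Fisher's exact p = 0.830). Some genes hosted regions of more than 1 group. Of the 169 hosts, 47 (27.8%) also held a younger L1 region, 31 (18.3%) an ancient L1 region and 38 (22.5%) one with no repeat. These are 9.87, 8.05 and 2.14% of the hosts of those groups. Of all 20056 protein-coding genes 476 held a younger L1 region, and of the 1399 over 200 kb 237 did. For an ancient L1 region these counts were 385 and 94, and for one with no repeat 1773 and 272. The overlaps were not tested. Longer genes hold more intronic sequence in which an L1 can lie. Intron length was not measured here, and its part in these shares was not tested.

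DLG2, a postsynaptic scaffold gene of 2173362 bp on chromosome 11, was the longest host and held 3 members, all in intron 3 of 27. They were centred in L1PA15, L1P2 and L1PB1, measured 1395, 2153 and 3245 bp, and lay within the first 7.90% of the gene body. DPP10, a potassium channel accessory gene (1403140 bp), held an L1P4 region of 1446 bp in intron 2 of 26. PRKG1, a cGMP-dependent kinase gene (1307463 bp), held an L1P1 region of 1751 bp, and ROBO1, an axon guidance receptor gene (1170760 bp), an L1PBa region of 4131 bp in intron 4 of 30. The members in these genes lay in introns 2 to 4.

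The shortest matched bodies in the newer gene table were those of XACT (1854 bp), LOC100506076 (13162 bp), LINC00342 (19930 bp), DIPK2A (20571 bp) and ZNF786 (21078 bp). XACT is a non-coding RNA gene of chromosome X described in human pluripotent cells. Its member, 5657 bp at positions 113858418 to 113864074 centred in L1PA10, was annotated to intron 1 of 2 of a XACT transcript and lay outside the short XACT body of the newer table, as did 1 other intronic member relative to its host. The deposited annotation thus placed XACT beyond that body, and 1854 bp is not the length of its XACT transcript. The members in LINC00342 (L1PA10, 1714 bp), DIPK2A (L1P2, 1009 bp) and ZNF786 (L1PA15, 1416 bp) were each in the first intron.

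Of the host genes, 181 held 1 member and 27 held 2 or more, 62 members in all. DACH2, a transcriptional cofactor gene of the dachshund family on chromosome X, held 4, all in first introns: L1PA13 regions of 1439, 1057 and 2144 bp and an L1P2 region of 941 bp. ZC4H2, a zinc finger gene on chromosome X that is linked to neural development, held 4 in intron 1 of 4 within 23349 bp, L1PBa regions of 2120 and 1301 bp, an L1P3 region of 2553 bp and an L1P1 region of 963 bp. The non-coding gene SLC38A4-AS1 on chromosome 12 also held 4, L1PA17 regions of 1545 and 1758 bp and L1PA14 regions of 1252 and 1029 bp. C1QTNF7-AS1 on chromosome 4 held 3, L1PB1 regions of 952 and 1053 bp and an L1PA16 region of 1074 bp. The 22 genes with 2 members included PCDH11X, TMEM132D, NBEA, SPOCK3, MBD5, EDA, TRDN, KIAA1328, BAZ2B, PPP1R9A, ZMAT4, SLC2A13, KCNMB2, MYO9A, LINC00630, BBOX1-AS1, MARK1, LOC100288637, VLDLR-AS1, ERCC8 and LINC02231.

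Members with the same repeat name also lay in close pairs, inside and outside genes. Of 38 pairs of neighbouring members within 10 kb of each other, 29 had the same name, and 25 of the 29 were at most 3 kb apart. In introns lay 13 of the 29, and 16 were intergenic. The 29 pairs took in 58 members (12.8%), with a median gap of 1426 bp (790 to 7345 bp) and a median span from the outer edge of one to the outer edge of the other of 4637 bp (2807 to 10648 bp). L1PB1 gave 10 pairs and L1PA10 and L1PA13 gave 5 each. The pair counts were not compared with younger or ancient L1 regions and were not tested. In PCDH11X, a protocadherin gene of chromosome X, L1PA13 regions of 2318 and 1708 bp were 1117 bp apart in intron 2 of 4. In MBD5, a gene of the methyl-CpG-binding domain family, L1PB1 regions of 1198 and 1438 bp were 1400 bp apart, and in SPOCK3, a proteoglycan gene, L1P2 regions of 1234 and 1034 bp were 904 bp apart. In MARK1, a microtubule-associated kinase gene, L1PA10 regions of 2077 and 1006 bp were 1617 bp apart. Pairs in SLC2A13 (gap 2714 bp) and ZMAT4 (1690 bp) were both L1PB1. Whether a pair lies in 1 L1 copy or in neighbouring copies cannot be told from the deposited annotation, which names the repeat at each centre without its ends.

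Other groupings were loose. Within 100 kb of each other, the 454 members formed 378 groups: 315 single members, 53 of 2, 7 of 3 and 3 of 4. The 3 groups of 4 were all on chromosome X, in ZC4H2, beside DCAF12L2 (118318 bp) and beside SPIN2B and reaching into FAAH2 (169589 bp). Considering all 9900 regions, 152 members (33.5%) had another region within 10 kb, and for 70 of these the nearest was another member. A younger L1 region was nearest for 21 and an ancient one for 18. The share was 24.2% in younger L1 regions (265 of 1096), 37.2% in ancient ones (235 of 632), 36.6% in regions with no repeat and 31.9% over all regions (3161 of 9900). These counts were chosen after seeing the data and were not tested.

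Within transcripts, no difference in the share of first introns passed the threshold. The first intron held 63 of 245 intronic members (25.7%, interval 20.4 to 31.7%), against 135 of 693 younger L1 regions (19.5%, 16.6 to 22.6%; difference 6.23 points, adjusted Fisher's exact p = 0.0693). The share was 26.4% in ancient L1 regions (124 of 469; difference -0.725 points, adjusted Fisher's exact p = 0.858) and 26.8% in regions with no repeat (602 of 2250; difference -1.04 points, adjusted Fisher's exact p = 0.830). The first 3 introns held 129 of 245 members (52.7%), the last intron 27, and the highest intron number was 41. Transcripts of 3 or fewer introns have no other place for a member. In transcripts of 4 or more introns, the first 3 held 90 of 206. These counts were not compared with the other groups.

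Along the gene body, members were spread widely with few near the gene end. The gene's strand was known for 164 of 194 members in protein-coding hosts, and their median position was 45.4% of the way from gene start to gene end (quartiles 22.9 and 69.8%). The last 10% of the gene body held 8 members (4.88%), against 41 of 495 younger L1 regions (8.28%), 41 of 350 ancient L1 regions (11.7%) and 354 of 1757 regions with no repeat (20.1%). The first 10% held 14 members (8.54%), against 26 younger (5.25%), 27 ancient (7.71%) and 240 regions with no repeat (13.7%). This measure was chosen after seeing the data, so it is given without a test.

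**Figure D5:**
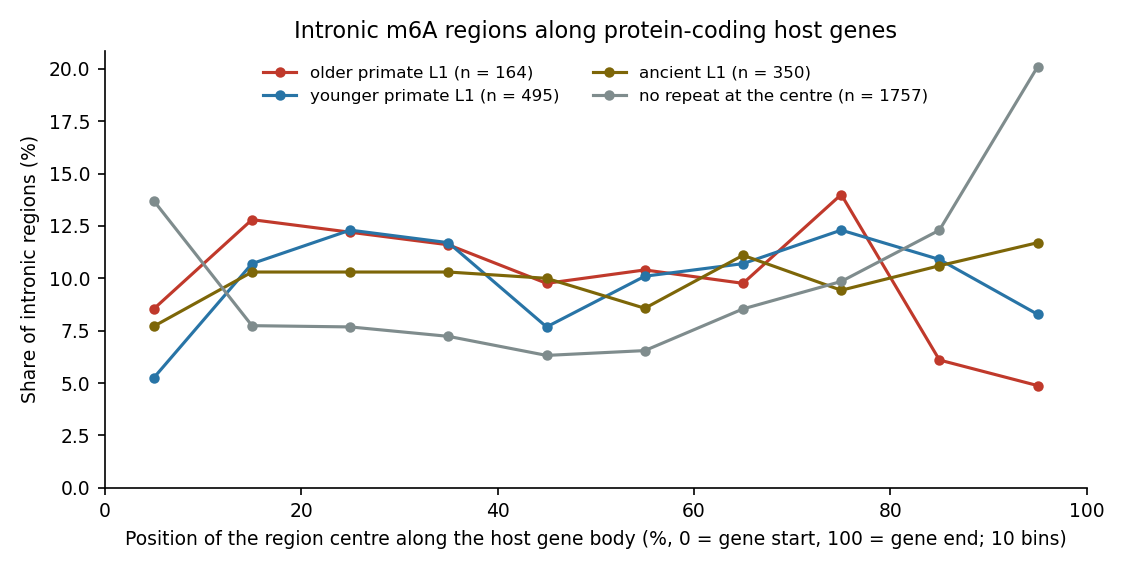
Share of intronic regions (%, vertical axis) in each 10% step of the host gene body (horizontal axis, from gene start to gene end) for older primate L1, younger primate L1, ancient L1 and no repeat at the centre. Members (n = 164) are lowest in the last step, 4.88%, where regions with no repeat are highest, 20.1%.

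Of all 20056 protein-coding genes 0.843% hosted a member, and among the 1399 with bodies over 200 kb 5.86% did (82 genes). Of 28 genes that restrain or regulate L1, 1 hosted a member (3.57%): PPHLN1, which encodes the periphilin subunit of the HUSH silencing complex, with an L1PB1 region of 1335 bp in intron 9 of 12. None of 27 genes of the m6A machinery did, and 2 of 30 DNA repair genes did (6.67%). These were ERCC8, a transcription-coupled repair gene, with L1P1 and L1PB1 regions of 1148 and 861 bp, and MRE11, a double-strand break nuclease gene, with an L1PA16 region of 2498 bp in intron 19 of 19. Of 25 very long genes, many at common fragile sites, 4 hosted members (16.0%). Among them were DLG2, NBEA, which encodes neurobeachin, with L1PB1 and L1P2 regions of 816 and 1137 bp in introns 1 and 34 of 57, and SMYD3, a lysine methyltransferase gene, with an L1PA16 region of 1042 bp in intron 5 of 11. The lists are small and these counts carry no test.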

How the data were processed

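Per the submitters' processing notes, MACS2 (version 2.2.7.1), HOMER, Trim Galore (version 0.6.7), bedtools (version 2.30.0), SAMtools (version 1.6) and HISAT2 (version 2.2.1) were used on hg38. Settings, and the placing of reads with several alignments, are not given in the sources used here. As their results, the authors deposited region positions and, per the file headers, a HOMER annotation of each region's centre; its distances to start sites are in base pairs. All 9900 positions matched between both files. The annotation's score was 0 throughout and was not used.

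Repeat names, introns and distances were read from that annotation. Host genes came from matching its transcripts to RefSeq (GRCh38.p14), and gene strand from RefSeq promoter entries. Shares were compared by two-sided Fisher's exact tests with Benjamini-Hochberg adjustment over 20 tests, threshold 0.05 (Python 3.11.15, SciPy 1.17.1), after trials on simulated data. Alternatives left out regions over 100 kb or over 5 kb or chromosome X, restricted repeat names, moved thresholds or, added later, used RefSeq gene bodies in every group. Another kept 1 region per host gene or nearest gene in each group. That region was the widest, so width shares under this alternative lean towards wide regions. Members named were the 10 widest and 10 narrowest, the 5 nearest to and 5 farthest from a start site, the widest of each repeat name, hosts of 2 or more, the 5 longest and 5 shortest hosts, and list members; some items the rule names are not reported here. A name outside the rule is given as an example chosen after its values were seen. The members and lists were chosen with earlier results of these data known.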

Additional observations from a re-analysis of the deposited data

How the results depend on the processing

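Of 102 alternative values for the 20 comparisons, 92 kept their direction and their side of the threshold, among them every value without regions over 100 kb (20) and without chromosome X (17). With 1 region per gene, the excess on chromosome X did not pass against younger (3.44 points) or ancient L1 (3.56 points). With L1PA and L1PB names alone, the chromosome X difference from ancient L1 was 4.18 points and did not pass, and the excess of regions over 5 kb against younger L1 passed (3.88 points). With regions up to 5 kb, the chromosome X difference from ancient L1 was 4.03 points and did not pass, and 3 differences that had not passed changed sign: first introns against ancient L1 (4.55 points) and against no repeat (2.15 points), and host genes over 200 kb against younger L1 (0.305 points). A 2 kb limit turned the width difference from younger L1 to -0.896 points. With the newer gene table applied to every group, added after seeing the data, the difference from younger L1 in the share inside genes was -5.43 points and did not pass. The causes were not tested. No paired analysis was possible because the 4 libraries gave 1 set of regions. Depth per library is unknown, so a missing region does not show missing m6A.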

Other observations

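Exonic m6A regions in the hosts of older primate L1 regions were counted next to those in other genes. Of the 169 protein-coding hosts, 29 had an m6A region in an exon as well (17.2%, interval 11.8 to 23.7%), against 79 of 476 hosts of younger L1 regions (16.6%) 75 of 385 hosts of ancient L1 regions (19.5%) and 383 of 1773 hosts of regions with no repeat (21.6%). Among protein-coding genes over 200 kb the share was 18.2% (255 of 1399), and among all protein-coding genes 12.8%. The 29 included DLG2, PCDH11X, BAZ2B, MBD5, PPHLN1, NIPBL, which encodes the cohesin loader, and the zinc finger genes ZNF14, ZNF227 and ZNF786. These values were not tested, and the genes were chosen after their values were seen.

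ZNF zinc finger genes, many of which encode repressors of transposable elements, hosted 5 members in 5 of 477 protein-coding genes whose symbol is ZNF and a number (1.05%), against 0.843% of all protein-coding genes. ZNF267 held an L1P1 region of 787 bp in intron 4 of 4, ZNF14 an L1P2 region of 794 bp in intron 1 of 3, ZNF227 an L1P1 region of 2065 bp in intron 3 of 5, ZNF786 an L1PA15 region of 1416 bp in intron 1 of 3, and ZNF92 the L1PREC2 region of 12450 bp.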
